A study of Mus musculus with 17 samples.

Results

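The genes Mrgprd, Mrgpra3, Mrgprb4, Mrgprx1, Nppb, Sst, Osmr, Il31ra, Lpar3 and Otoa mark non-peptidergic nociceptors and itch-sensing neurons of the mouse dorsal root ganglion, the cluster of sensory nerve cell bodies beside the spinal cord. They were chosen by name, with earlier results of these data known, as a list of 10 genes among the 78298 gene identifiers of the deposited tables. Each matched 1 identifier, and all 10 passed the filter on low counts. RNA of lumbar ganglia (L4 to L6) was sequenced in bulk, and all 17 libraries carry the label day 30. They form 4 groups: 3 libraries of KO mice after chronic constriction injury (CCI KO, numbered 2, 3 and 4), 4 of KO mice after a sham operation (sham KO), 5 of WT mice after the injury (CCI WT) and 5 of WT mice after a sham operation (sham WT). Chronic constriction injury is a model of neuropathic pain in which the sciatic nerve is loosely tied, and KO stands for the label of a knockout of Twik-1, a potassium channel encoded by Kcnk1. The deleted part of Kcnk1, the strain, sex and age of the mice, and whether a library holds 1 animal or a pool are not stated in the material used here.

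Small-diameter sensory neurons, among them those that lack the classical pain peptides, fall into classes with different receptors. Neurons with Mrgprd reach the outer skin and respond to beta-alanine and to mechanical stimuli. Neurons with Mrgpra3 and Mrgprx1 detect chloroquine and itch-inducing peptides, and neurons with Nppb and Sst carry the receptor pair for interleukin-31, made of Il31ra and Osmr, and signal itch to the spinal cord. In these classes the transcription factor Runx1 is known to take part in setting the receptor repertoire, and nerve injury is known to lower many receptor transcripts of small neurons in rodents.

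The promoters of Nppb, Il31ra and Sst, markers of the same itch neurons, are shown first because of how these genes varied between libraries below. Nppb and Il31ra went together, whereas Sst went apart from both in some of the sham KO libraries. Each sequence runs 5′ to 3′ from 250 bases before to 50 bases after the gene's start, from RefSeq on GRCm38.p6, an older build than the GRCm39 of the deposited counts. Capitals mark a motif found by a search of both strands.
Nppb, chr4:147985650-147985949, plus strand: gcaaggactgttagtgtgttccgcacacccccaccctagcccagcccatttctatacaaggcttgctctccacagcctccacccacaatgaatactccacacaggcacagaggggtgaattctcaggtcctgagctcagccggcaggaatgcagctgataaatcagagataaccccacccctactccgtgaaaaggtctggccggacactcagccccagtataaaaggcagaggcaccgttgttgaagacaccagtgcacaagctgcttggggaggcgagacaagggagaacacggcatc
Il31ra, chr13:112580613-112580912, minus strand: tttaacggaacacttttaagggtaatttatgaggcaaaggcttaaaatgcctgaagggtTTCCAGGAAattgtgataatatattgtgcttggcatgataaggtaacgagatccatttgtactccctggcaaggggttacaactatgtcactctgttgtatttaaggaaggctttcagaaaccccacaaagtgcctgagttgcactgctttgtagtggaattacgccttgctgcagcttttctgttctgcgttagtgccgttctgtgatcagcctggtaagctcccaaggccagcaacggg
Sst, chr16:23890795-23891094, minus strand: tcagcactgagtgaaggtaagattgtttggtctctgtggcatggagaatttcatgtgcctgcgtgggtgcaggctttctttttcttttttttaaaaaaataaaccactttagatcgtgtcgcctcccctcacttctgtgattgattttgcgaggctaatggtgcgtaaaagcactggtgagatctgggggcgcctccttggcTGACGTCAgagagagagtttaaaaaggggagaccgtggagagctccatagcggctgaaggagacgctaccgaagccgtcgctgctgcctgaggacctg
The motifs searched were TGANTCA (the AP-1 site), TGACGTCA (the cAMP response element), TGTGGT (a RUNX site) and TTCNNNGAA (a STAT site). The AP-1 and cAMP motifs cannot share a match, and no matches overlapped in these promoters. The Sst promoter held the cAMP response element 48 bases before the start, a motif found in 1.79% of 32841 promoters of the same length. Il31ra held a STAT motif 191 bases before the start and Otoa held another 172 bases before it, a motif present in 8.3% of promoters. The Osmr window held the AP-1 motif just after the start, a motif that 7.81% of promoters hold. The RUNX motif, present in 16.8% of promoters, was found in no window of these genes. The Nppb, Mrgprd, Mrgprb4, Mrgprx1 and Lpar3 windows held none of the 4 motifs. Of the 10 genes, 9 had an entry in the promoter table. Such letter matches are a description and show no binding.

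The libraries held 52.52 to 73.58 M counts assigned to genes (M, mega). Transcripts of Kcnk1 were present in every library, at 83.9 ± 5.36 CPM in CCI KO and 89.8 ± 18.01 CPM in sham KO libraries against 114.3 ± 6.83 CPM in CCI WT and 127 ± 18.9 CPM in sham WT libraries (SD between libraries; CPM stands for counts per M counts after scaling of the libraries). The KO minus WT difference of Kcnk1 was not past the threshold in sham (−0.50 ± 0.12 on the log2 scale, with its standard error, edgeR adjusted p = 0.0659) or in CCI libraries (−0.45 ± 0.13, edgeR adjusted p = 0.20). These counts are no full check of the knockout label, and KO is used as the labels give it. Sham KO libraries 1 and 2 stood apart from the other sham libraries in the injury marker Atf3, with 140.6 and 103.3 CPM against 11.1 and 13.2 CPM in sham KO libraries 3 and 4 and 9.42 to 16.8 CPM in sham WT libraries. Values that moved by over 1.5 times without these 2 libraries are given in both forms for the injury effect in KO mice and the genotype difference in sham libraries. Markers of spinal cord summed to 139.3 CPM in sham WT library 5, against 9.75 to 40.3 CPM in the other 16 libraries. A number of unstated meaning in the names of the deposited tables is shared by all sham libraries and differs for each CCI group, so that anything it may stand for cannot be told apart from the injury, from the genotype after CCI or from the difference of the injury effects.

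Per M counts and per kilobase of annotated exon, Mrgprd was the most abundant of the 10 in sham WT libraries, with 93.96 ± 11.6 (SD, n = 5), rank 321 of 17601 protein-coding genes with any count. Lpar3 followed with 43.3 ± 8.01. Mrgpra3 had 16.0 ± 2.09 and Nppb 12.2 ± 1.79 on this scale. Mrgprb4 (5.60 ± 0.92), Il31ra (4.24 ± 0.48), Sst (3.96 ± 0.73), Osmr (3.34 ± 0.58) and Mrgprx1 (2.67 ± 0.73) lay close together, and Otoa was lowest at 1.61 ± 0.16, rank 9471. The length was that of all annotated exons of a gene, merged, so this order depends on the annotation. Sst, with 3.63 kilobases, had 14.4 CPM in sham WT libraries, and Nppb, with 1.13 kilobases, had 13.8 CPM. The defining receptors and peptides of the neurons in question were thus all present in whole ganglia, and no library had 0 counts for any of them.

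After injury the mean level of all 10 genes was lower than after sham in KO and in WT libraries. Averaged over both genotypes, 3 genes were called lower and 0 higher: the itch peptide gene Nppb (−0.72 ± 0.14 on the log2 scale, edgeR adjusted p = 0.00423), the chloroquine receptor gene Mrgpra3 (−0.40 ± 0.09, edgeR adjusted p = 0.00638) and Mrgprb4, a marker of touch-sensing unmyelinated fibres (−0.52 ± 0.14, edgeR adjusted p = 0.0426). Errors of log2 values are standard errors of the fit over all 17 libraries, and the threshold was an adjusted p of 0.05. Among all 23972 tested genes 3.63% were called in this comparison. The median log2 fold change of the 10 was −0.41 and that of all tested genes was −0.01. In whole ganglia, fewer neurons of a class and less RNA per neuron cannot be told apart. Summed over the 10 genes, 423.6 to 488.6 CPM were measured in CCI KO, 465.6 to 649.9 CPM in sham KO, 441 to 527.2 CPM in CCI WT and 463.9 to 626.7 CPM in sham WT libraries.

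**Figure D1:**
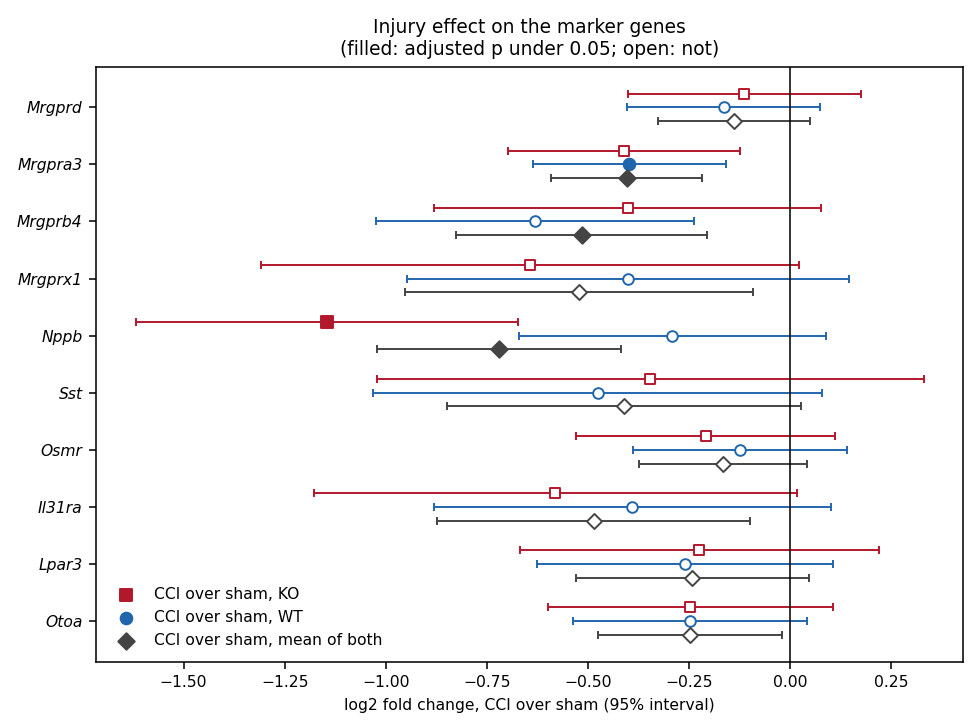
Log2 fold change of CCI over sham for each gene (x axis, with 95% intervals) in KO libraries (squares), in WT libraries (circles) and as the mean of both (diamonds). All 30 points lie left of 0, and the filled symbols, past the adjusted threshold, are Nppb in KO, Mrgpra3 in WT, and Nppb, Mrgpra3 and Mrgprb4 in the mean of both.

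Within KO libraries alone 1 of the 10 genes was called, Nppb lower (−1.15 ± 0.22, edgeR adjusted p = 0.0483), where 0.0834% of all tested genes were called. Within WT libraries alone 1 was called as well, Mrgpra3 lower (−0.40 ± 0.11, edgeR adjusted p = 0.0452), where 3.06% of all tested genes were called. The median log2 fold change of the 10 was −0.37 in KO and −0.34 in WT libraries, and of all tested genes 50.94% had a negative value in KO and 51.26% in WT libraries. In WT libraries all 10 signs were the same in every alternative. In KO libraries Osmr and Il31ra (0.06 each) turned positive without sham KO libraries 1 and 2, and Mrgprd, Sst and Lpar3 turned positive without sham KO library 3, which left 8 and 7 of the 10 negative. These comparisons share no libraries with each other, but the mean over both genotypes uses the same libraries as each of them. The difference between the KO and the WT injury effect was called by edgeR for 0 of the 10 genes, and 0% of tested genes were called. Of the 10, Nppb alone had an unadjusted p under 0.05 there (−0.85 ± 0.28, edgeR adjusted p = 0.685), with a 95% interval from −1.45 to −0.26. Among all tested genes 5.87% had an unadjusted p under 0.05 in that comparison. DESeq2 and limma-voom also called 0 of the 10.

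**Figure D2:**
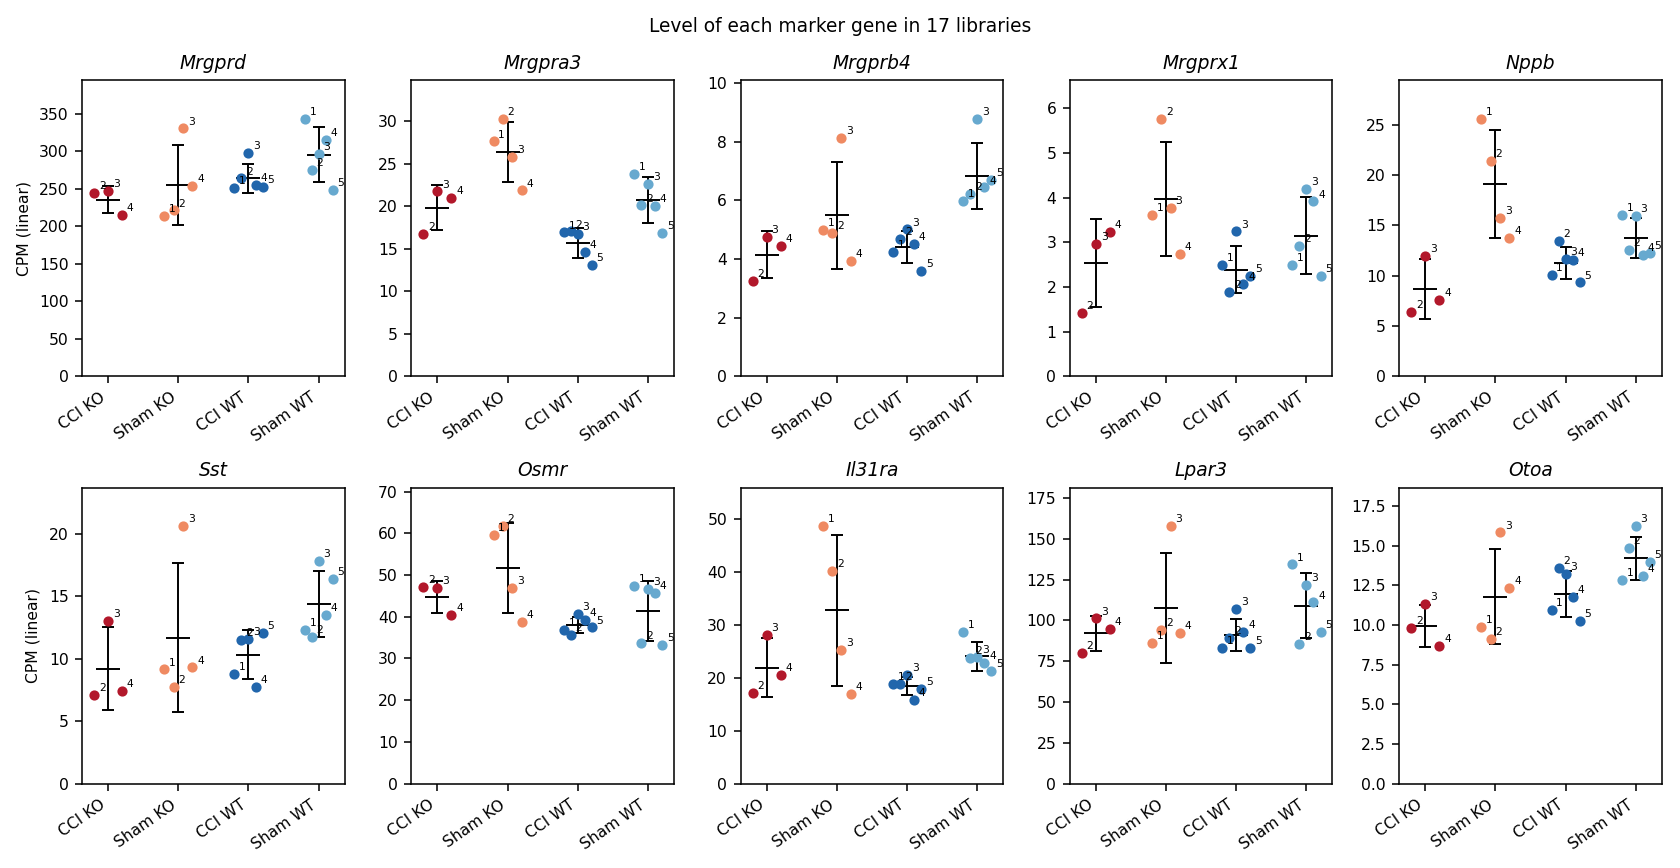
CPM of each gene (y axis, linear, from 0) in each of the 17 libraries, drawn as numbered points by group, with bars for the group mean and SD. Sham KO libraries 1 and 2 are the highest points for Il31ra, Nppb and Osmr, and sham KO library 3 is the highest for Sst and Lpar3.

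Of the receptors of the Mrgprd class of neurons, Mrgprd itself (ENSMUSG00000051207, GRCm39 chromosome 7, 144868572 to 144877823) was the most abundant. It stood at 244.2, 246.6 and 215.3 CPM in CCI KO libraries 2, 3 and 4 and at 213.4, 220.8, 330.1 and 254 CPM in sham KO libraries 1 to 4. In WT mice it stood at 250.5, 263.5, 297.6, 254.4 and 251.8 CPM in CCI libraries 1 to 5 and at 342.9, 274.9, 296.3, 314.8 and 248.1 CPM in sham libraries 1 to 5. The CCI libraries overlapped the sham libraries in each genotype, while every CCI KO library lay below every CCI WT library. The log2 fold change for injury was −0.11 ± 0.13 in KO (edgeR adjusted p = 0.905) and −0.16 ± 0.11 in WT libraries (edgeR adjusted p = 0.602). The KO minus WT difference after CCI was −0.16 ± 0.13 (edgeR adjusted p = 0.834) and in sham libraries −0.21 ± 0.12 (edgeR adjusted p = 0.543). Without sham KO libraries 1 and 2 the KO injury effect was −0.31 (edgeR adjusted p = 0.406) and the sham genotype difference −0.01. Without sham KO library 3 alone they were 0.03 and −0.36, and the genotype difference was past the threshold (edgeR adjusted p = 0.0366). In that fit 471 genes were called for genotype in sham libraries, against 240 with all libraries. A long non-coding RNA gene, Gm72820, overlaps Mrgprd on the opposite strand without sharing exon bases.

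Lpar3 (chromosome 3, 145926691 to 145991969), a receptor for lysophosphatidic acid found in the same neurons, had a group mean of 92.0 ± 10.95 CPM in CCI KO and 107.5 ± 33.6 CPM in sham KO libraries. In WT mice the mean was 91.1 ± 9.76 CPM in CCI and 109.1 ± 20.2 CPM in sham libraries. The range in sham KO libraries, 86.2 to 157.7 CPM, was set by library 3, with the other 3 at or below 94.1 CPM. The injury effect was −0.22 ± 0.21 (log2) in KO (edgeR adjusted p = 0.854) and −0.26 ± 0.17 in WT libraries (edgeR adjusted p = 0.588). The genotype difference was near 0 in sham (−0.02 ± 0.18, edgeR adjusted p = 0.986) and in CCI libraries (0.01 ± 0.20, edgeR adjusted p = 0.994), with 95% intervals of −0.41 to 0.37 and −0.41 to 0.44. The KO injury effect was −0.44 and the sham genotype difference 0.20 without sham KO libraries 1 and 2, and without library 3 alone they were 0.01 and −0.26. The ratio of Mrgprd to Lpar3 CPM stayed between 2.09 and 3.22 over all 17 libraries.

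Among the Mrgpr receptors of itch and touch neurons, Mrgpra3 (chromosome 7, 47238698 to 47251120) had a lower mean after injury in each genotype. It had 16.8, 21.7 and 21.0 CPM in CCI KO libraries 2, 3 and 4, against 27.6, 30.3, 25.8 and 21.9 CPM in sham KO libraries 1 to 4. In WT mice it had 16.9, 17.0, 16.8, 14.7 and 13.1 CPM in CCI libraries 1 to 5, against 23.8, 20.1, 22.7, 20.1 and 16.8 CPM in sham libraries 1 to 5. All 3 CCI KO libraries lay below every sham KO library, and 3 of the 5 CCI WT libraries lay below every sham WT library. The log2 fold change was −0.41 ± 0.13 in KO (edgeR adjusted p = 0.313) and −0.40 ± 0.11 in WT libraries (edgeR adjusted p = 0.0452), and their difference was −0.01 ± 0.17 with a 95% interval from −0.39 to 0.36. The WT call was lost in 11 of 26 alternative fits, 10 of which left out 1 library (sham KO 1, sham WT 1, 2, 3 or 4, CCI KO 4, or CCI WT 1, 2, 4 or 5), with adjusted p between 0.0051 and 0.155 over the 26. The call averaged over both genotypes held in all 25 alternatives, with a highest adjusted p of 0.0424.

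Mrgpra3 was also the gene of the 10 with the smallest p for genotype. It was higher in KO than in WT libraries by 0.35 ± 0.12 (log2) after sham (edgeR adjusted p = 0.164) and by 0.34 ± 0.13 after CCI (edgeR adjusted p = 0.341), each with an unadjusted p under 0.05 and neither past the threshold. Without sham KO libraries 1 and 2 the sham value was 0.21 (edgeR adjusted p = 0.79) and the KO injury effect −0.26 (edgeR adjusted p = 0.622). Without sham KO library 4 the sham value was 0.43 and past the threshold (edgeR adjusted p = 0.0476). In that fit 665 genes were called for genotype in sham libraries, against 240 with all libraries.

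Mrgprb4 (chromosome 7, 47847818 to 47849036) had 3.24, 4.77 and 4.45 CPM in CCI KO libraries 2, 3 and 4, against 5.00, 4.89, 8.13 and 3.92 CPM in sham KO libraries 1 to 4. In WT mice it had 4.23, 4.69, 5.01, 4.52 and 3.60 CPM in CCI libraries 1 to 5, against 5.98, 6.23, 8.78, 6.44 and 6.71 CPM in sham libraries 1 to 5. Every CCI WT library was thus below every sham WT library, while the KO groups overlapped. The WT difference was −0.63 ± 0.18 (edgeR adjusted p = 0.058) and the KO difference −0.40 ± 0.22 (edgeR adjusted p = 0.647). The KO difference was −0.15 without sham KO library 3 and −0.25 without CCI KO library 2. The sham genotype difference was −0.32, and −0.18 without sham KO libraries 1 and 2. The call averaged over both genotypes was lost in 9 fits that left out 1 library (sham KO 3, sham WT 3 or 5, CCI KO 2 or 4, or CCI WT 1, 2, 4 or 5), the highest adjusted p being 0.196 without CCI KO library 2.

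Mrgprx1 (chromosome 7, 47670719 to 47677345), the receptor of itch-inducing peptides also known as Mrgprc11, was the least abundant in CPM, with 1.41 to 3.23 CPM in CCI KO, 2.73 to 5.77 CPM in sham KO, 1.88 to 3.24 CPM in CCI WT and 2.24 to 4.19 CPM in sham WT libraries. Its groups overlapped in every comparison. The injury effect was −0.64 ± 0.31 (log2) in KO (edgeR adjusted p = 0.571) and −0.40 ± 0.25 in WT libraries (edgeR adjusted p = 0.547). The KO value was −0.35 without sham KO libraries 1 and 2 (edgeR adjusted p = 0.816), and the sham genotype difference was 0.05, against 0.33 with them. Mrgpra3, Mrgprx1 and Mrgprb4 lie in a cluster of near copies on chromosome 7, so reads could be shared between relatives. Of all exonic windows of 75 bases, 99.65% of those of Mrgpra3, 99.22% of Mrgprx1 and 100% of Mrgprb4 occurred at a single place in GRCm39.

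Of the itch peptides, Nppb (chromosome 4, 148069859 to 148071662), which encodes a natriuretic peptide that relays itch in the spinal cord, differed most. It had 6.36, 11.99 and 7.63 CPM in CCI KO libraries 2, 3 and 4, against 25.6, 21.5, 15.8 and 13.7 CPM in sham KO libraries 1 to 4. In WT mice it had 10.1, 13.5, 11.7, 11.6 and 9.32 CPM in CCI libraries 1 to 5, against 16.0, 12.6, 15.9, 12.04 and 12.3 CPM in sham libraries 1 to 5. Every CCI KO library was below every sham KO library, and 4 of the 5 CCI WT libraries were below every sham WT library. The KO mean was 8.66 ± 2.96 CPM after CCI and 19.2 ± 5.40 CPM after sham, a log2 fold change of −1.15 ± 0.22, and the WT mean was 11.2 ± 1.61 CPM after CCI and 13.8 ± 2.03 CPM after sham, a log2 fold change of −0.29 ± 0.18 (edgeR adjusted p = 0.524). Averaged over both genotypes Nppb was called lower in all 25 alternatives, with log2 fold changes of −0.87 to −0.53.

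The size of the KO fall of Nppb rested in part on sham KO libraries 1 and 2. Without both, it was −0.77 (edgeR adjusted p = 0.113), the difference from WT was −0.48 (edgeR adjusted p = 0.963) and the KO minus WT difference in sham libraries was 0.11, against 0.48 ± 0.18 with all libraries (edgeR adjusted p = 0.279). The KO call was lost in 17 of 26 alternatives in all, 13 of which left out 1 library (sham KO 1, 2 or 3, sham WT 1, 2, 4 or 5, CCI KO 2 or 4, or CCI WT 1, 2, 4 or 5), while its sign held in every one.

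Sst (chromosome 16, 23707321 to 23711733) encodes somatostatin, an inhibitory peptide found in the same neurons as Nppb. It had 7.11, 13.1 and 7.44 CPM in CCI KO libraries 2, 3 and 4, against 9.15, 7.71, 20.6 and 9.31 CPM in sham KO libraries 1 to 4. In WT mice it had 8.75, 11.5, 11.6, 7.73 and 12.1 CPM in CCI libraries 1 to 5, against 12.3, 11.7, 17.8, 13.5 and 16.4 CPM in sham libraries 1 to 5. Sham KO library 3 was the highest of all 17 for Sst, whereas libraries 1 and 2, the highest for Nppb, were among the low ones. No comparison of Sst was past the threshold: the injury effect was −0.35 ± 0.31 in KO (edgeR adjusted p = 0.849) and −0.48 ± 0.26 in WT libraries (edgeR adjusted p = 0.462). The KO value was −0.70 without sham KO libraries 1 and 2 and 0.07 without library 3. Sham WT library 5, with 16.4 CPM of Sst, had the high spinal cord marker sum, and spinal cord neurons also express Sst. The largest parts of that sum were the glial genes Mobp (66.4 CPM) and Gfap (58.3 CPM). The neuronal genes Slc32a1 and Chat had 0 counts there, and Gad2 had 0.0654 CPM. Sham WT library 3 had 17.8 CPM of Sst with a spinal cord marker sum of 16.8 CPM. The part of spinal cord in the Sst values was not tested.

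The ratio of Nppb to Sst CPM set these 2 libraries apart. It was 2.80 and 2.78 in sham KO libraries 1 and 2, against 0.766 and 1.48 in sham KO libraries 3 and 4. It was 0.894 to 1.03 in CCI KO, 0.771 to 1.501 in CCI WT and 0.747 to 1.30 in sham WT libraries. The ratio of Il31ra to Otoa behaved alike, at 4.93 and 4.41 in sham KO libraries 1 and 2 and at most 2.48 in the other 15. CCI libraries, in which Atf3 stood at 93.8 CPM or more, had ratios of Nppb to Sst of at most 1.501. The part of Atf3 or of what raised it in the ratios was not tested.

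**Figure D3:**
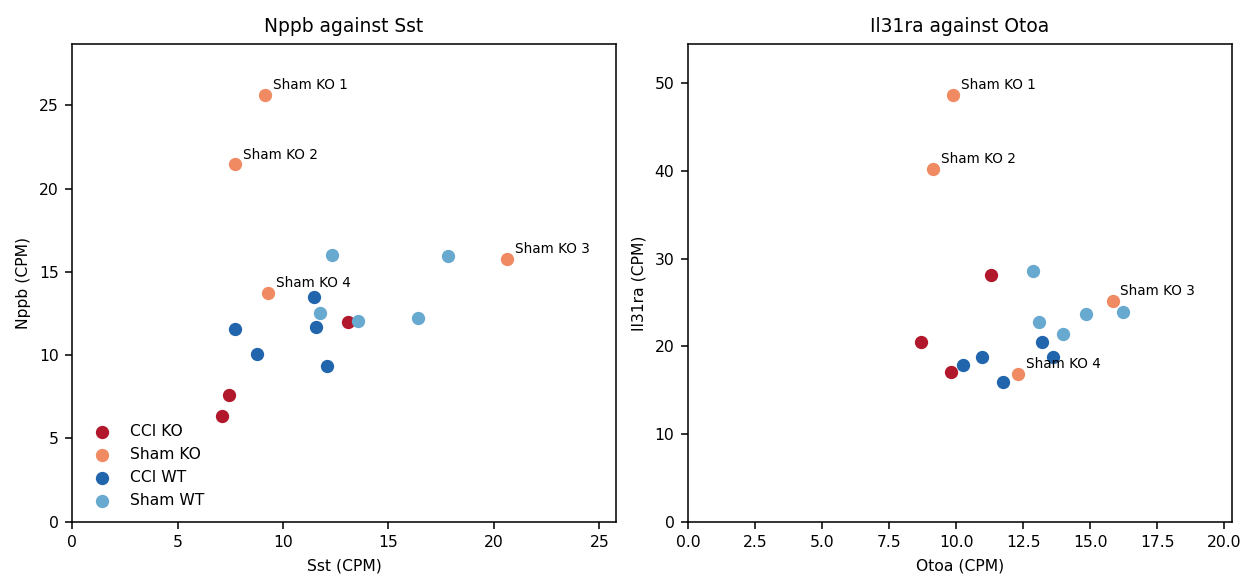
Nppb against Sst (left) and Il31ra against Otoa (right), in CPM on linear axes from 0, each point 1 library coloured by group, with the sham KO libraries named. Sham KO libraries 1 and 2 lie above all others on both vertical axes, while their Sst and Otoa values lie within the range of the rest.

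Of the cytokine receptors, Il31ra (chromosome 13, 112656432 to 112730894), the subunit specific to interleukin-31, varied most between libraries of the sham KO group. It had 17.1, 28.1 and 20.5 CPM in CCI KO libraries 2, 3 and 4, against 48.6, 40.2, 25.2 and 16.9 CPM in sham KO libraries 1 to 4. In WT mice it had 18.8, 18.8, 20.5, 15.9 and 17.8 CPM in CCI libraries 1 to 5, against 28.6, 23.7, 23.96, 22.8 and 21.4 CPM in sham libraries 1 to 5. All 5 CCI WT libraries lay below all 5 sham WT libraries, but the difference of −0.39 ± 0.23 was not past the threshold (edgeR adjusted p = 0.514), and with only the WT groups in the fit it was. In KO libraries the groups overlapped and the difference was −0.58 ± 0.28 (edgeR adjusted p = 0.584). Without sham KO libraries 1 and 2 it was 0.06 (edgeR adjusted p = 0.96), and the KO minus WT difference in sham libraries was −0.19 (edgeR adjusted p = 0.869), against 0.44 ± 0.24 with them (edgeR adjusted p = 0.536).

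Osmr (chromosome 15, 6843053 to 6904450), which pairs with Il31ra for interleukin-31 and with Il6st for oncostatin M, stood at 47.1, 46.8 and 40.4 CPM in CCI KO libraries 2, 3 and 4, against 59.6, 61.7, 46.9 and 38.9 CPM in sham KO libraries 1 to 4. In WT mice the range was 35.7 to 40.6 CPM in CCI and 33.3 to 47.5 CPM in sham libraries, so that these groups overlapped fully. The injury effect was −0.21 ± 0.15 in KO (edgeR adjusted p = 0.777) and −0.13 ± 0.12 in WT libraries (edgeR adjusted p = 0.776). Without sham KO libraries 1 and 2 the KO value was 0.06 (edgeR adjusted p = 0.939). The KO minus WT difference in sham libraries was 0.32 ± 0.13 (edgeR adjusted p = 0.313), and 0.06 without these 2 libraries (edgeR adjusted p = 0.972). An RNA gene on the other strand, Gm41261, overlaps Osmr without shared exon bases, and 45 exon bases of Il31ra (0.793%) are shared with the pseudogene Gm3226. Osmr was the only one of the 10 genes whose CCI KO mean (44.8 ± 3.80 CPM) exceeded its sham WT mean (41.4 ± 7.19 CPM).

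Otoa (chromosome 7, 120680873 to 120762695) encodes otoancorin, a protein best known from the inner ear. It ranged from 8.68 to 11.3 CPM in CCI KO, 9.13 to 15.8 CPM in sham KO, 10.3 to 13.6 CPM in CCI WT and 12.9 to 16.2 CPM in sham WT libraries. The injury effect was −0.25 ± 0.16 in KO (edgeR adjusted p = 0.741) and −0.25 ± 0.13 in WT libraries (edgeR adjusted p = 0.438). The KO value was −0.50 without sham KO libraries 1 and 2 and −0.08 without library 3. The sham genotype difference was −0.27, and −0.01 without libraries 1 and 2. Averaged over both genotypes it was −0.25 ± 0.11 (edgeR adjusted p = 0.239) with all libraries and −0.37 without sham KO libraries 1 and 2, which was past the threshold (edgeR adjusted p = 0.028).

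For genotype, edgeR called 0 of the 10 genes in sham libraries, where 1% of tested genes were called, and 0 in CCI libraries, where 0.684% were called. In sham libraries 3 of the 10 (Mrgpra3, Nppb and Osmr) had an unadjusted p under 0.05, as did 11.44% of all tested genes. In CCI libraries 1 of the 10 (Mrgpra3) had one, as did 8.78% of all tested genes. DESeq2 and limma-voom called 0 of the 10 in both. Without sham KO library 4, Osmr (0.44, edgeR adjusted p = 0.0373) and Il31ra (0.66, edgeR adjusted p = 0.049) joined Mrgpra3 past the threshold in sham libraries. Over all genes the calls rose as well in that fit, to 665 from 240 with all libraries. In each comparison 5 genes had a positive and 5 a negative log2 fold change. Mrgprd, Mrgprb4, Sst and Otoa were negative and Mrgpra3, Mrgprx1, Osmr and Il31ra positive in both, while Nppb was positive in sham and negative in CCI libraries and Lpar3 the reverse. These 2 comparisons share no libraries. The signs in sham libraries turned for Sst (0.06, against −0.30 with all libraries), Il31ra (−0.19) and Lpar3 (0.20) without sham KO libraries 1 and 2. Lpar3 turned positive there in 6 of 26 alternatives in all. After CCI, Lpar3 turned negative in 6 of 26 alternatives (down to −0.06), Mrgprx1 turned negative in 3 (down to −0.12) and Mrgprb4 turned positive in 1 (0.07).

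From low to high, the group means of Mrgprd and Otoa ran CCI KO, sham KO, CCI WT, sham WT. Those of Mrgpra3, Mrgprx1 and Il31ra ran CCI WT, CCI KO, sham WT, sham KO. For Mrgprb4 and Sst the order was CCI KO, CCI WT, sham KO, sham WT, and for Nppb it was CCI KO, CCI WT, sham WT, sham KO. Osmr ran CCI WT, sham WT, CCI KO, sham KO and Lpar3 ran CCI WT, CCI KO, sham KO, sham WT. For all 10 genes the libraries of neighbouring groups in these orders overlapped. The highest group mean was 2.21 times the lowest for Nppb and 1.197 times for Lpar3, with the other 8 in between.

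**Figure D4:**
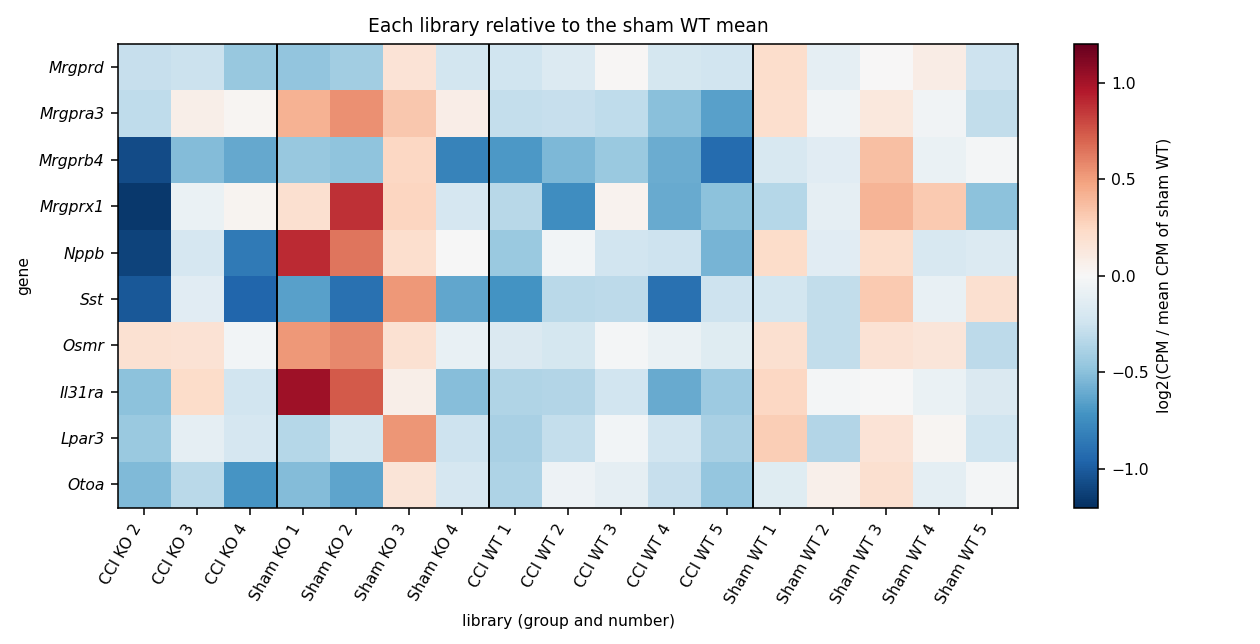
Log2 ratio of each library's CPM (columns, by group) to the mean of the sham WT libraries for each gene (rows), red above and blue below. In sham KO libraries 1 and 2 Mrgpra3, Mrgprx1, Nppb, Osmr and Il31ra are red while Mrgprd, Mrgprb4, Sst, Lpar3 and Otoa are blue, and in sham KO library 3 all 10 are red.

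Across libraries, with the group means removed, the pairs of genes that went together depended in part on sham KO libraries 1 and 2. Over all 17 libraries the highest Pearson correlations of log2 CPM among the 45 pairs were those of Mrgprd with Lpar3 (0.838) and of Nppb with Il31ra (0.832), followed by Sst with Otoa at 0.739. The lowest were those of Il31ra with Otoa (−0.353) and of Osmr with Otoa (−0.335). Of the 45 pairs 34 were positive, with a median of 0.387. Without sham KO libraries 1 and 2 all 45 were positive, with a median of 0.558, and without any sham KO library all 45 were as well, with a median of 0.494 over 13 libraries. Mrgprd with Lpar3 then stood at 0.72, Nppb with Il31ra at 0.778 and Sst with Otoa at 0.517. Mrgprd with Osmr, at 0.103 over all 17 libraries, was the highest pair at 0.839 without the sham KO group. It was also the highest without sham KO libraries 1 and 2 only, at 0.846. Without these 2 libraries Il31ra with Lpar3 rose from 0.01 to 0.734, while Osmr with Il31ra fell from 0.688 to 0.40. These are descriptions over libraries that share scaling and ganglion makeup, with no p.

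**Figure D5:**
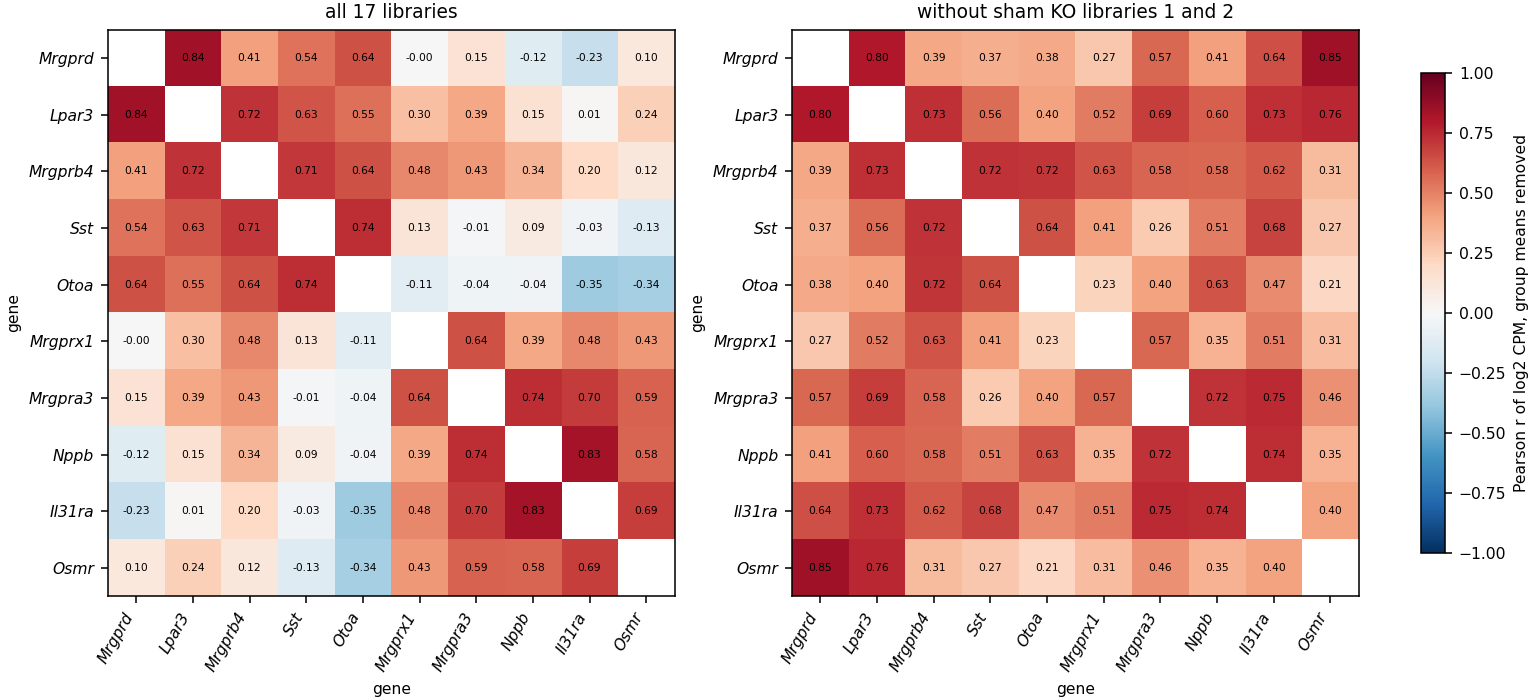
Pearson correlation of log2 CPM between each pair of genes after removal of group means, over all 17 libraries (left) and without sham KO libraries 1 and 2 (right), from −1 (blue) to 1 (red). The negative values on the left, down to −0.353 for Il31ra with Otoa, are absent on the right, where all 45 are above 0.

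Among 13542 protein-coding genes with a mean of at least 1 CPM, the gene most like Lpar3 on this measure was Ptgdr, a receptor for prostaglandin D with a correlation of 0.984 (0.969 without the sham KO group), which is also on the list of other markers of these neurons. Phf24 was most like Mrgprd (0.944) and Psd most like Mrgprb4 (0.923). Il31ra was most like P4ha3 and Arpin (0.927 each), which dropped to 0.662 and 0.719 without the sham KO group, whereas the next, Pde4c, stood at 0.90 and at 0.853 without that group. For Nppb the closest were Ada (0.833) and Il31ra itself. Sprn was closest to Mrgpra3 (0.88), Gpr35 to Mrgprx1 (0.877), Ndor1 to Osmr (0.883), Pithd1 to Sst (0.88) and Sft2d3 to Otoa (0.864). All are over 17 libraries.

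Other markers of the same neurons were taken from a list of 18 genes, all tested. After injury in KO libraries 0 were called, and in WT libraries 2 were called higher and 0 lower. The neuropeptide gene Nts had 166, 129.4 and 140.3 CPM in CCI KO libraries and 125.9, 65.9, 17.7 and 20.3 CPM in sham KO libraries 1 to 4, against 110.1 to 243.4 CPM in CCI WT and 12 to 31.7 CPM in sham WT libraries. It was higher by 3.43 ± 0.52 (log2) after injury in WT (edgeR adjusted p = 0.00254), and sham KO libraries 1 and 2 lay above the other 7 sham libraries. Gfra1, a receptor subunit for the growth factor GDNF, was higher by 1.03 ± 0.17 in WT (edgeR adjusted p = 0.00369). Gfra2, the receptor subunit for neurturin typical of non-peptidergic neurons, was lower averaged over both genotypes (−0.34 ± 0.08, edgeR adjusted p = 0.0296). The remaining 15 were not past the threshold in that comparison, and the median of the 18 was −0.19. Which neurons carried these transcripts cannot be told from bulk RNA.

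Of 18 other gene symbols of the Mrgpr family 17 matched an identifier, 13 were tested and 0 were called in any of the 6 comparisons, with a median injury effect of −0.22 averaged over both genotypes. Of 27 ligands, partner subunits and signalling partners of the 10 genes, 23 were tested and 0 were called for injury. The interleukin-31 gene Il31 had 0 counts in every library. Il6st, the partner of Osmr, averaged 205.9 CPM in CCI KO, 209 CPM in sham KO, 178 CPM in CCI WT and 173.8 CPM in sham WT libraries. The somatostatin receptor gene Sstr2 was the only one of the 23 called for genotype, higher in KO than in WT libraries after CCI by 0.68 ± 0.15 (edgeR adjusted p = 0.0233), with 12.8 to 14.0 CPM in CCI KO and 6.80 to 10.1 CPM in CCI WT libraries.

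Markers of other cells moved as well. General neuron markers, 14 genes, summed to 12960 to 13980 CPM in CCI KO and 12470 to 12980 CPM in sham KO libraries, and to 12990 to 13190 CPM in CCI WT and 11290 to 13020 CPM in sham WT libraries. In WT libraries 3 of them were called higher after injury, among them Stmn2 (0.40 ± 0.05, edgeR adjusted p = 9.5e-05) and Tubb3 (0.36 ± 0.06, edgeR adjusted p = 0.00118), and 0 lower. The median log2 fold change of the 14 for injury was near 0, at −0.0037 in KO and 0.0092 in WT libraries. Scaling the libraries to these 14 genes left Nppb, Mrgpra3 and Mrgprb4 called lower averaged over both genotypes, and left the KO value of Nppb at −1.16, no longer past the threshold (edgeR adjusted p = 0.069). Of 15 axon injury genes 0 were called in KO libraries, where 0.0834% of all tested genes were called. In WT libraries 15 were called higher after injury, where 3.06% of all tested genes were called. The KO log2 fold changes of the 15 were all positive, from 0.23 to 3.19. Their sums were 1333 to 2101 CPM in CCI KO and 1473 to 2462 CPM in CCI WT libraries. They summed to 1575 and 1355 CPM in sham KO libraries 1 and 2 against 724.9 and 645.7 CPM in libraries 3 and 4. Markers of peptidergic neurons summed to 6624 and 7256 CPM in sham KO libraries 1 and 2, the highest of the 17, and to 4826 and 4560 CPM in libraries 3 and 4. Of these 9 markers 0 were called after injury in KO libraries, and 2 were called lower in WT libraries. Their median log2 fold change was −0.15 in KO and −0.32 in WT libraries, so a fall after injury in WT was not particular to the 10 genes. Of 7 myelinating Schwann cell markers 5 were called lower in KO than in WT sham libraries, and of 7 macrophage markers 3 were called higher after injury in WT. For injury averaged over both genotypes, 5 of 7 satellite glia markers and 1 of 5 endothelial markers were called higher, and 1 of 6 markers of low-threshold C fibres and 1 of 9 of large myelinated neurons were called lower. The tested markers of mast cells, fibroblasts, lymphocytes, keratinocytes and spinal cord were not past the threshold in that comparison. The part of these cells in the results on the 10 genes was not tested.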

How the data were processed

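Per the submitters' processing notes, base calls were converted with bcl2fastq 2.20.0.422 and reads were aligned with STAR 2.7.11a to GRCm39. Each deposited table gives an unscaled count of reads for every Ensembl identifier of 1 library; the authors' counter, its strand setting and its annotation are not stated in the material used here. Per the labels' protocols, RNA came from a PicoPure kit and libraries from a SMART-Seq v4 kit, which does not keep strand, so reads of overlapping genes cannot be told apart. Lines outside any gene (4.04 to 4.55%) and ambiguous lines (7.63 to 8.17%) were left out of library totals.

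Symbols and coordinates came from GENCODE M39, which matched 78168 of 78298 identifiers. At least 1 read was counted for 46200 genes, and 23972 of these passed the low-count filter of edgeR (filterByExpr on the 4 groups, with a count of at least 10 and a total of at least 15). Libraries were scaled by TMM (factors 0.983 to 1.03). A mean per group was fitted over all 17 libraries (13 residual degrees of freedom) and tested with edgeR 4.0.16 (R 4.3.3), quasi-likelihood F test, Benjamini-Hochberg adjustment over all tested genes. The 6 comparisons were injury in each genotype, genotype in each treatment, the difference of the injury effects and their mean. Log2 CPM used a prior count of 2. Alternatives used DESeq2 1.42.0 and limma 3.58.1, other filters and scalings, fewer groups and libraries left out. The members and lists were chosen with earlier results of these data known. Named genes are the 10 members, with Kcnk1, Atf3, Sprr1a and Gal as checks. Also named are up to 2 called genes of smallest p per list and comparison, and the 3 most alike genes per member. Gfra2, Il6st, Il31 and the spinal cord genes Mobp, Gfap, Slc32a1, Chat and Gad2 were named after their values were seen. Whether each library is a different mouse is not in the labels; the p-values therefore describe spread among these libraries, which may be technical. Precision is limited by the number of libraries; the lowest count of a member in a library was 86.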

Additional observations from a re-analysis of the deposited data

Results flagged for a closer look

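Of 30 combinations of gene and group with at least 4 libraries, 4 held a library far from the rest of its group, and chance alone flags about 1 in 20. Sham KO library 3 stood apart for Sst, with 20.63 CPM against 7.71 to 9.31 CPM in the other 3, and for Lpar3, with 157.7 CPM against 86.2 to 94.1 CPM. CCI WT library 3 stood apart for Mrgprd, with 297.6 CPM against 250.5 to 263.5 CPM in the other 4. Sham WT library 3 stood apart for Mrgprb4, with 8.78 CPM against 5.98 to 6.71 CPM in the other 4.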

How the results depend on the processing

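For injury averaged over both genotypes the number of the 10 genes called was 3, and 3 or 4 under every alternative tried on all or all but 2 libraries and 2 to 4 with 1 library left out; Nppb and Mrgpra3 were among them each time. For injury in WT it was 1, and 2 with no low-count filter, with the stricter filter, with DESeq2's test and with the replicate number as a block (Mrgprb4 in addition), 3 with only the compared groups in the fit (Il31ra in addition), and 0 to 2 with 1 library left out. With limma-voom the gene called was Mrgprb4 in place of Mrgpra3. For injury in KO it was 1, and 0 with DESeq2's size factors, with scaling to neuron markers, with only the compared groups and without sham KO libraries 1 and 2, and 0 to 1 with 1 library left out. For genotype in sham libraries it was 0, and 2 with no low-count filter (Nppb and Osmr) and 0 to 3 with 1 library left out. Mrgprd was called without sham KO library 3 (471 calls over all genes), and Mrgpra3, Osmr and Il31ra without library 4 (665 calls). For the difference of the injury effects it was 0, and 1 (Nppb) with no low-count filter. For genotype in CCI libraries it was 0 throughout. The cause of these changes was not tested. Of 1540 single values of the 10 genes under alternatives, 1418 kept their sign and their side of the threshold, 37 lost and 21 gained a call, and 64 uncalled values changed sign, 41 of them in the difference of the injury effects.

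Over all tested genes, injury in WT gave 733 calls, and 1301 with no filter, 1128 with DESeq2 and 1196 with limma-voom. Injury in KO gave 20, and 224, 123 and 24 in that order, 46 with the block, 147 without sham KO libraries 1 and 2, 11 with DESeq2's size factors, 3 with neuron scaling and 4 with only the compared groups. Genotype in sham libraries gave 240, and 702, 629 and 379 with no filter, DESeq2 and limma-voom, 139 with the block, 69 with only the compared groups and 37 without sham KO libraries 1 and 2. Genotype in CCI libraries gave 164, and 452, 405 and 440 in the same order, 91 with the block and 407 with only the compared groups. The difference of the injury effects gave 0, and 77 with no filter and 21 with DESeq2. The mean of both injury effects gave 870, and 1442, 1320 and 1309. With 1 library left out the calls over all genes ranged over 0 to 43 for injury in KO, 423 to 998 for injury in WT, 18 to 229 for genotype in CCI libraries, 88 to 665 for genotype in sham libraries, 0 to 7 for the difference and 442 to 1114 for the mean. Libraries with the same number had correlations of −0.013 to 0.118 over 22 pairs (median 0.022). Libraries with different numbers had −0.167 to 0.114 over 85 pairs (median −0.006). All pairs of libraries numbered 3 were positive, from 0.034 to 0.118, and sham WT 3 with sham KO 3 was the highest of all pairs. What the number stands for was not tested. The block does not rest on a known pairing, and it changed no other call of the 10 genes than Mrgprb4 in WT and Sst in the mean of both. Correlations without sham KO libraries were chosen after seeing the data.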
